A study of Drosophila melanogaster with 3 samples.

Results

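The irre cell recognition genes kirre, rst, sns and hbs were examined for peaks of the tagged nuclear receptor svp, and all of their reproducible peaks lay in the introns of kirre. Kirre had 21 peak summits, the most of any protein-coding gene, in a gene body that ranks 5 by length. Rst, which is nested inside kirre, had no summit in its body and shared 2 of the kirre summits in its flanks. The partner genes sns and hbs had 0. The 4 genes were taken from 13968 protein-coding genes of the chromosome arms, and the 21 summits from 5443 peaks.

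The proteins of these genes are adhesion molecules of the immunoglobulin superfamily, and they work in pairs across a contact between cells. Kirre (also called Dumbfounded) and Rst (Roughest) are displayed by muscle founder cells, and Sns (Sticks and stones) and Hbs (Hibris) are nephrin-like partners that bind them from the surface of fusion-competent myoblasts. The same pairs sort cells in the pupal retina and build the slit diaphragm of nephrocytes, the filtering cells that stand in for the podocytes of vertebrates. The protein assayed, svp, is the fly COUP-TF, a nuclear receptor that sets cell identity in photoreceptors, neuroblasts, the heart and the fat body.

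Anti-GFP chromatin immunoprecipitation and sequencing (ChIP-seq) was done in 3 biological replicates of 1 group. All were whole white prepupae of the strain svp-GFP, males and females pooled and of unstated age, which stably express svp with GFP fused to its C-terminus. Whole animals mix all tissues, so a peak cannot be placed in muscle, eye or nephrocytes. The labels name the antibody target as svp in one field and as GFP in another, no sample without the GFP fusion is analysed here, and read depth is unknown. The replicate lists and the pooled list held 30000 peaks each, and the IDR-thresholded list (peaks kept for their reproducibility between replicates) held 5443 peaks, all on dm6. The replicates, taken as separate biological samples per the labels, had median signal values of 18.4, 20.4 and 14.9 in replicates 1, 2 and 3.

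A summit was counted for a gene where it lay in the gene body or within 5 kb of it. The signal value is the authors' measure of the strength of each peak, and it was compared only within a list, mostly as a rank in which 1 is the strongest. Support by a replicate means that the summit fell within 1 of the 5000 strongest peaks of that replicate. The genes were selected on their summit counts in these lists, so the counts describe the genes and were not tested. With the same window, 39.2% of all protein-coding genes had at least 1 IDR-thresholded summit, as did 63.3% of the 670 genes of at least 30 kb and 59.8% of the 87 genes of at least 100 kb.

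The sequences under the 5 strongest kirre peaks are printed because these peaks are described singly, and 3 more because of where they lie or what they match. Each is the RefSeq sequence of dm6 (Release 6), plus strand, 5′ to 3′, from 50 bp before to 50 bp after the summit, and capitals mark the single match to a motif searched. The first 5 are the kirre peaks with the highest signal values, in falling order, and the last 3 are the peak at the start of CG32795, the only peak with a motif match and the peak upstream of rst.
kirre peak 18, chrX:3053417-3053517: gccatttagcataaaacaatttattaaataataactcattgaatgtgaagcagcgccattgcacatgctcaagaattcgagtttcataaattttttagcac
kirre peak 3, chrX:2786708-2786808: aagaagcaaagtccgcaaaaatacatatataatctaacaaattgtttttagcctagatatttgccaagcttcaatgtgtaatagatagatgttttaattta
kirre peak 16, chrX:3046138-3046238: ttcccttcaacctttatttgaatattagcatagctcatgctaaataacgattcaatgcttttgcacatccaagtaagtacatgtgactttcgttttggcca
kirre peak 4, chrX:2787438-2787538: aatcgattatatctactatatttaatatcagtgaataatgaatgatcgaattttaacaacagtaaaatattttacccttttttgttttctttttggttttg
kirre peak 12, chrX:3018802-3018902: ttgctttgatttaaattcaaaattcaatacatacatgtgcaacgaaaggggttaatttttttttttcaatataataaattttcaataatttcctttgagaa
kirre peak 6, chrX:2790294-2790394: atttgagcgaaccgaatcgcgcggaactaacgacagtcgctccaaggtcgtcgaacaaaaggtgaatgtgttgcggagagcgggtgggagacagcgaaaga
kirre peak 7, chrX:2796885-2796985: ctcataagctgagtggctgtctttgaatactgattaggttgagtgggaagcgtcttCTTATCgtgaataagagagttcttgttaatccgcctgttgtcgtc
kirre peak 9, chrX:2978231-2978331: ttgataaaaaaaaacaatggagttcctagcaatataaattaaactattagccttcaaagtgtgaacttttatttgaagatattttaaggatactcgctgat
Of the 8 windows printed, those of peak 6, at the start of CG32795, and peak 7, at w, had the most G and C, 54.5% and 43.6%. The windows of peaks 18, 3, 16, 4 and 12 had 31.7%, 26.7%, 35.6%, 21.8% and 21.8% G and C, against a median of 37.6% over all 5425 summits on the arms.

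Kirre (FBgn0028369, plus strand, 394149 bp at chrX:2740384-3134532 in dm6) encodes the founder-cell receptor. Its window of 404149 bp held 21 IDR-thresholded summits, and the next genes by this count were ush, sbb and Eip75B with 19 each and CG43658 with 18. Ush is a cofactor of GATA factors, sbb is a nuclear regulator of development, and Eip75B is a nuclear receptor gene induced by the steroid hormone ecdysone. Counting only summits found in the top 5000 of both remaining replicates, kirre had 14, 15 and 15 without replicates 1, 2 and 3, and ranked 2, 2 and 3. Per 10 kb, kirre had 0.520 summits, against 0.434 on the X and 0.394 on all arms, while ush, sbb, Eip75B and CG43658 had 2.56, 2.13, 1.54 and 1.57. By this density kirre ranked 4976 among the 13968 genes, of which 5479 had at least 1 summit and the rest tied at 0. Among the 87 genes of at least 100 kb it ranked 1 by count and 16 by density, and those genes had a median of 3 summits and 0.165 per 10 kb. The 4 genes longer than kirre, Myo81F, Pzl, lovit and CG17684, named after their values were seen, had 0 summits each. In the full lists of replicates 1, 2 and 3, Myo81F had 128, 54 and 52 peaks and Pzl 60, 15 and 23. Lovit had 48, 25 and 19 there, and CG17684 35, 18 and 13. How well reads map to these genes was not examined.

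**Figure D1:**
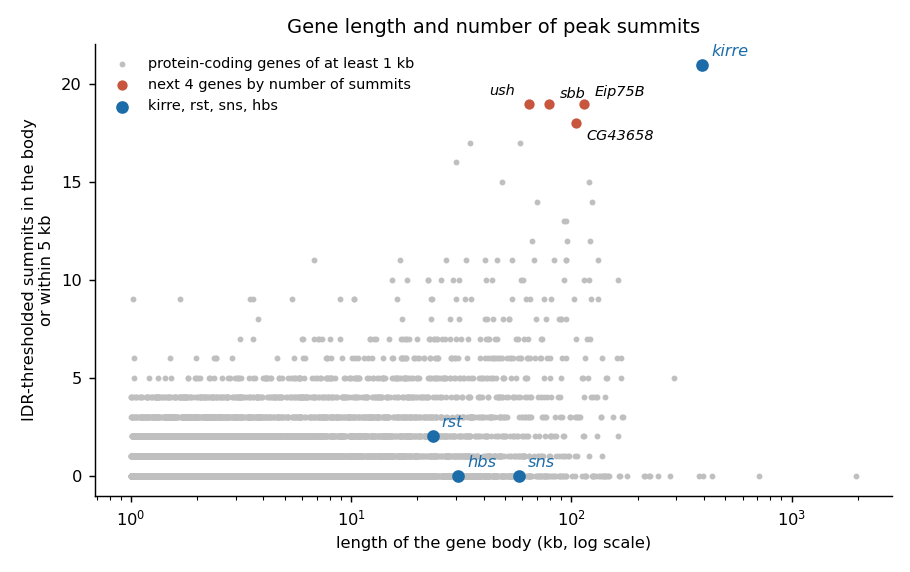
Number of IDR-thresholded summits in each gene body or within 5 kb of it (vertical axis) against the length of the gene body in kb (horizontal axis, log scale), for protein-coding genes of at least 1 kb. Kirre stands at the top right with 21 summits, the next 4 genes by count are at 18 and 19, rst is at 2, and sns and hbs are at 0.

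All 21 summits lay within kirre introns, and most were away from any start site. Promoters (500 bp or less from a start site of transcription, TSS) held 4 of them (19.0%) and introns outside promoters held 17 (81.0%). The summits were chosen for lying at a gene that is nearly all intron, so these shares are not set against those of other summits. The 4 promoter summits were at nested or overlapping genes. They lay 185 bp from a TSS of Syx4, a syntaxin of vesicle fusion, 223 bp from CG32795, 469 bp from w, the ABC transporter gene that gives the eye its pigment, and 327 bp from CG3603. The sources used here do not say whether the svp-GFP strain carries further copies of w, which limits the reading of peaks there. No summit lay within 500 bp of any of the annotated kirre or rst start sites. The nearest to a kirre TSS, peak 21, was 2331 bp away with a signal value of 281.9.

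The summits were gathered in a few stretches of the gene, numbered here from the first kirre TSS. Summits no more than 10 kb apart were joined. The largest group of 6 lay 299.6 to 319.9 kb into the gene, and a group of 5 lay at 46.4 to 56.6 kb, over CG32795 and the start of w. Between 56.6 and 207.3 kb lay a gap of 150772 bp with no IDR-thresholded summit, which holds 16 nested protein-coding genes. The full lists of replicates 1, 2 and 3 had 28, 17 and 16 weaker peaks in this gap, and their top 5000 had 0 in each. By intron of the transcript FBtr0309501, which has 11 exons, intron 5 held 11 summits (0.935 per 10 kb), intron 2 held 7 (0.576) and intron 3, which contains rst, held 3 (0.227). Intron 5 also led in each replicate, with 15, 8 and 8 summits among the top 5000 of replicates 1, 2 and 3, against 7, 5 and 6 in intron 2 and 3, 2 and 2 in intron 3.

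**Figure D2:**
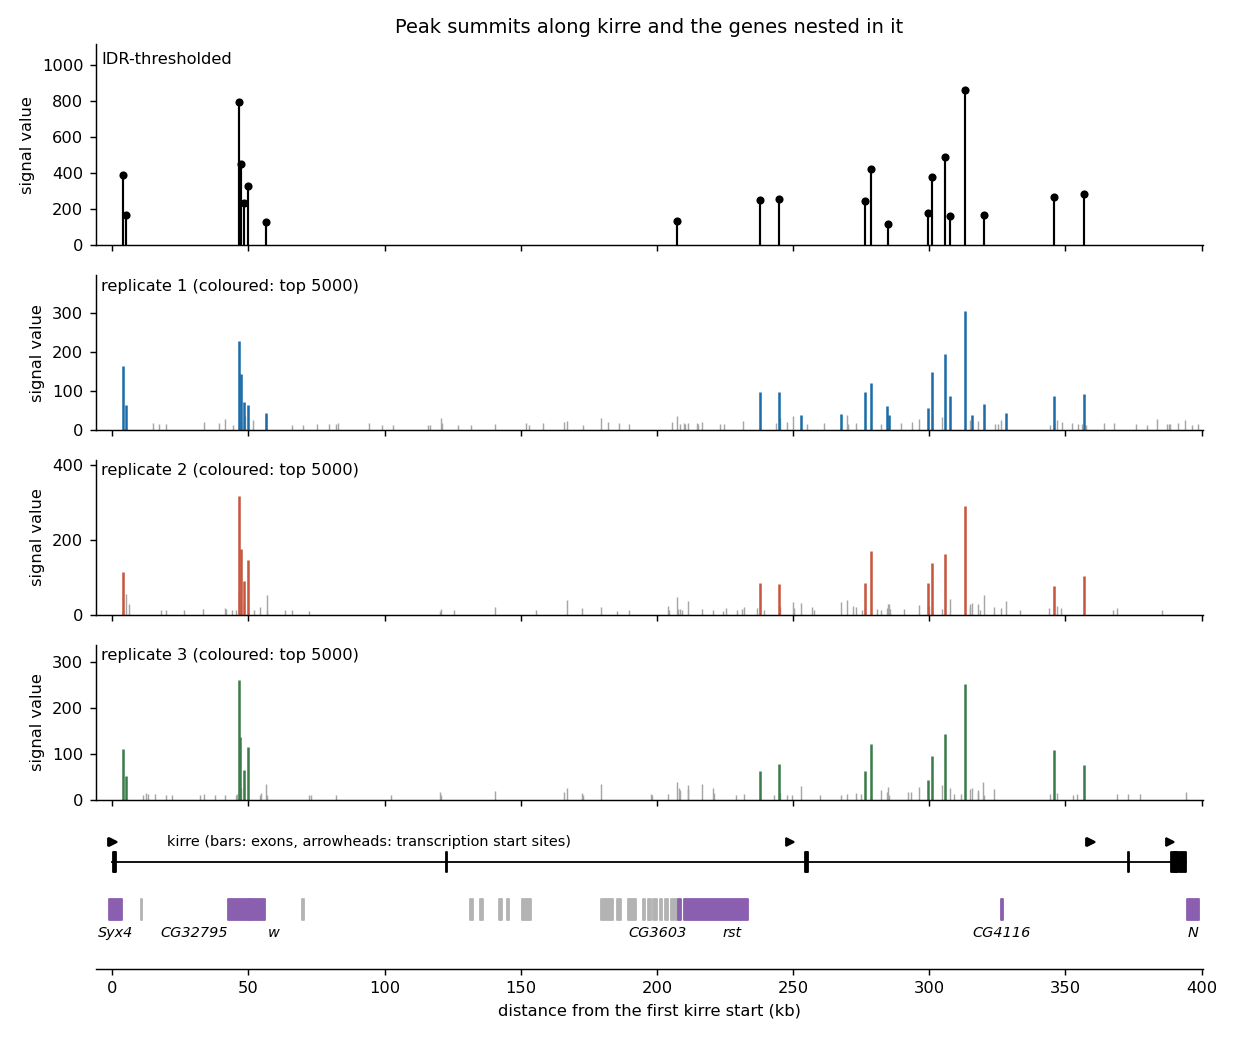
Peak summits along kirre, with distance from its first TSS in kb on the horizontal axis and signal value on the vertical axes, for the IDR-thresholded list and the 3 replicates (coloured lines are in the top 5000 of the replicate, grey lines are weaker). Kirre exons and start sites and the nested and neighbouring genes are drawn to scale, with Syx4, CG32795, w, CG3603, rst, CG4116 and N in purple; all 3 replicates have their tallest lines near 46 and 313 kb and no coloured line between 56.6 and 207.3 kb.

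The strongest kirre peak was peak 18 (chrX:3053281-3053628), in intron 5, with a signal value of 859.2 and rank 219 of 5443. Its signal values were 305, 292 and 252 in replicates 1, 2 and 3, where it ranked 156, 368 and 226. It was a strong peak in every replicate, and no TSS was near it. The nearest protein-coding TSS, of CG4116, was 14015 bp away. Peak 16 (chrX:3046024-3046316), in the same group, had a signal value of 492.3, and 196, 163 and 142 in replicates 1, 2 and 3. Peak 12 (chrX:3018731-3019013), also in intron 5, had 421.6, with 120, 171 and 121 in the replicates. Both were well inside the top 5000 of each replicate, at ranks 436, 1302 and 772 for peak 16 and 1095, 1178 and 1055 for peak 12.

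The second strongest, peak 3 (chrX:2786578-2786963), lay in kirre intron 2 and inside the nested gene CG32795, 2564 bp from the TSS of that gene. Its signal value was 796.5, and in replicates 1, 2 and 3 it was 228, 319 and 259, with ranks of 330, 287 and 207. Its neighbour, peak 4 (chrX:2787199-2787637), was 730 bp away with a signal value of 451.9, and 144, 175 and 26.1 inside the matching intervals of replicates 1, 2 and 3. The low value of replicate 3 depended on the interval: that replicate had a peak of 136.4, rank 841, with its summit 31 bp away, in an interval that ended short of the peak 4 summit. CG32795 held 4 of the kirre summits in its body, more than any other nested gene. Full lists of replicates 1, 2 and 3 gave it 7, 8 and 8 peaks, and gave w 1, 2 and 2.

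The lowest signal value in the whole IDR-thresholded list, 119.6 at rank 5443, also belonged to kirre. This was peak 13, in intron 5, which ranked 2948 in replicate 1 but 11383 and 7684 in replicates 2 and 3. Just outside the list, the highest kirre peak of the pooled list had a signal value of 106.7 and rank 6087. Kirre peaks thus ran from the lowest value of the list to its upper ranks, with a median of 258 against 218 over all summits, and 2 of the 21 were among the 300 highest.

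The IDR-thresholded list was made from the same 3 replicates, so support by them is no independent test. All 21 kirre peaks were found in the full lists of all 3 replicates (100%), against 88.0% of the other summits. In the top 5000, replicate 1 supported 20 of them, replicate 2 supported 15 and replicate 3 supported 15. All 3 supported 14 (66.7%, exact 95% interval 43.0 to 85.4%), against 56.7% of the other summits, and 1 peak, at CG3603, was supported by none. That interval takes the peaks of 1 gene as independent and does not measure the spread between replicates. Replicate 1 ranked kirre peaks highest: 16 of the 21 had their best rank there, 0 in replicate 2 and 5 in replicate 3. The share best in replicate 1 was 76.2% for kirre, 56.1% for 930 other peaks on the X and 46.4% for 3828 peaks elsewhere, over peaks found in all 3 lists. Replicate 1 also had more of its top 5000 on the X, 20.2% against 16.7% in replicate 2 and 17.3% in replicate 3, and the part of this in the kirre ranks was not tested.

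**Figure D3:**
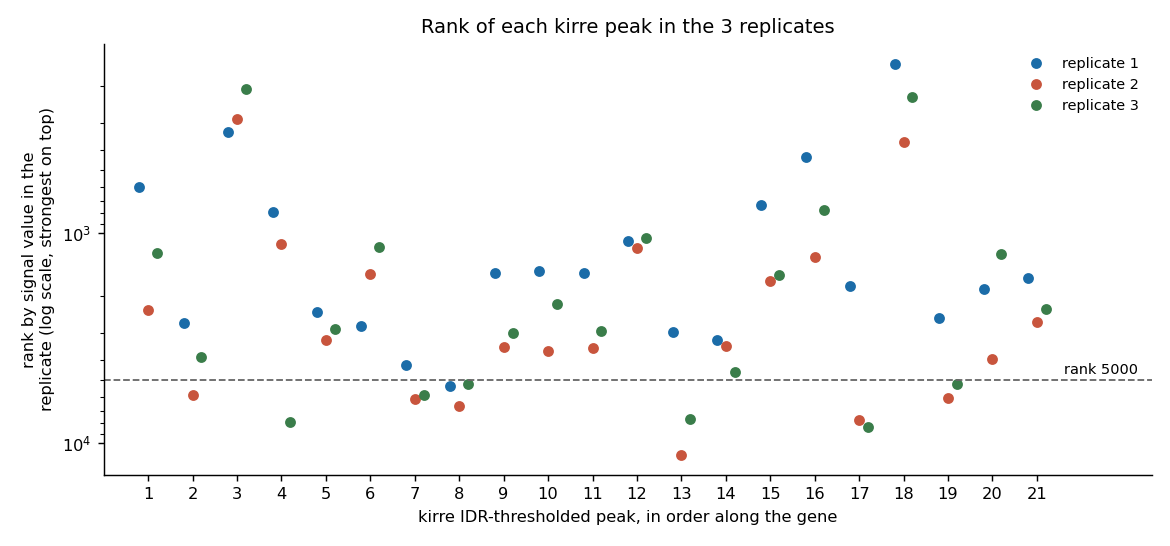
Rank by signal value of each of the 21 kirre peaks (horizontal axis, in order along the gene) in the list of each replicate (vertical axis, log scale, strongest on top), with 1 point per replicate and a dashed line at rank 5000. Peaks 3 and 18 lie at ranks 156 to 368 in all 3 replicates, and peak 13 spans 2948 to 11383; the replicate 3 point of peak 4 is the weak interval that contains its summit.

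Rst (FBgn0003285, minus strand, 23436 bp at chrX:2950399-2973834) encodes the paralogue that acts in part in place of Kirre in founder cells. Its body, inside kirre intron 3, held 0 IDR-thresholded summits, and its 2 summits lay in the 5 kb flanks. Peak 9 (chrX:2978196-2978349) lay 4447 bp upstream of the single annotated rst TSS, with a signal value of 248.6, and 96.8, 84.5 and 61.8 in replicates 1, 2 and 3. It ranked 1552, 3464 and 2981 there and was the only rst summit supported by all 3. Peak 8, past the other end of rst, was the promoter peak of CG3603, with a signal value of 134.3, and 36.1, 48.5 and 38.8 in the replicates. Below the reproducible list, the rst body had 8, 8 and 7 peaks in the full lists of replicates 1, 2 and 3. The highest pooled peak left out of the IDR-thresholded list was in its 3′ UTR, with a signal value of 83.6 and rank 7658. Both rst summits are also kirre summits, so peak positions alone cannot assign them to either gene.

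Sns (FBgn0024189, plus strand, 57603 bp on 2R at 8798489 to 8856091) and hbs (FBgn0287864, plus strand, 30739 bp on 2R at 15011396 to 15042134) encode the partner receptors of fusion-competent cells. Neither had an IDR-thresholded summit in its window. Nor did either have a peak in the top 5000 of any replicate, where 35.0%, 43.3% and 41.3% of all genes had one in replicates 1, 2 and 3. In this they were 2 of many: 60.8% of all genes and 36.7% of those of at least 30 kb had 0 IDR-thresholded summits. The nearest summits outside their windows were 39528 bp from sns, at Sec31, and 12238 bp from hbs, with signal values of 434.7 and 381.

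Weak peaks were present at both genes in every replicate, as at 65.0%, 77.4% and 76.7% of all genes in the full lists of replicates 1, 2 and 3. The best sns peaks ranked 7047, 14849 and 8533 in replicates 1, 2 and 3, and the best hbs peaks 5948, 12777 and 7396. At sns, replicates 2 and 3 had their best peak at 1 shared site and replicate 1 had its best peak at another. That shared site was the highest pooled sns peak, with a signal value of 66.2, and it lay 416 bp from a TSS of the neighbouring gene RyR, the ryanodine receptor of muscle calcium release. The next, with 64.1, lay 486 bp before the sns TSS and ranked 7047, 19378 and 13323 in the replicates. At hbs the highest pooled peak had 73.3 and lay past the 3′ end of the gene, 10092 bp from the nearest TSS. All of these values are under the lowest value of the IDR-thresholded list, 119.6.

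**Figure D4:**
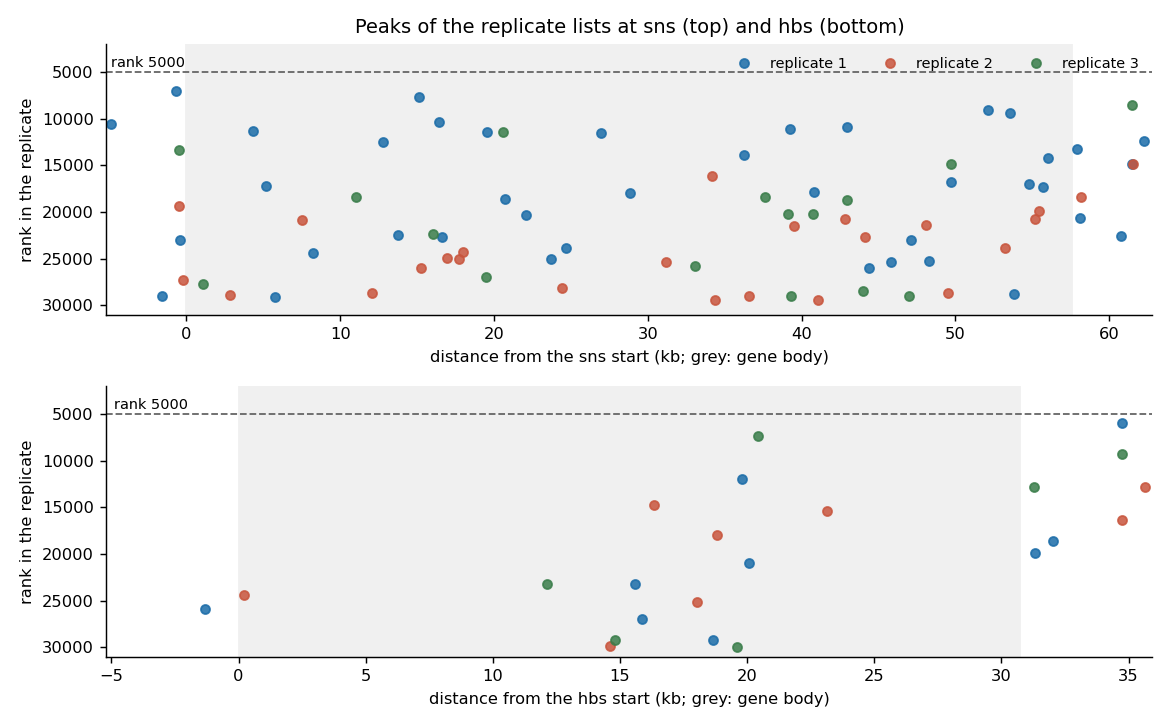
Rank of each peak of the 3 full replicate lists (vertical axes, strongest on top) by its distance in kb from the start of sns (upper panel) and hbs (lower panel), with the gene body in grey and a dashed line at rank 5000. No point lies above the line; replicate 1 has 40 peaks at sns, against 25 and 16 in replicates 2 and 3.

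The number of weak peaks at sns differed between replicates more than at the other 3 genes. The sns window held 40, 25 and 16 peaks in the full lists of replicates 1, 2 and 3, or 27.0 ± 12.1 (SD, n = 3), and hbs held 9, 8 and 6, or 7.67 ± 1.53. Kirre held 114, 101 and 95 (103 ± 9.71) and rst 13, 14 and 11 (12.7 ± 1.53). Per 10 kb, sns had 5.92, 3.70 and 2.37, against 2.25, 2.16 and 2.04 on the whole of 2R. Among the 670 genes of at least 30 kb it ranked 7 by this density in replicate 1, 117 in replicate 2 and 345 in replicate 3. Kirre had 2.82, 2.50 and 2.35 per 10 kb, against 1.96, 2.17 and 2.01 on the X, and ranked 262, 262 and 357 among the same genes. Hbs, with 2.21, 1.96 and 1.47 per 10 kb, ranked 362, 374 and 541. Rst had 3.89, 4.19 and 3.29.

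Sns was thus crowded with low-ranking peaks in replicate 1 and near the level of its arm in replicate 3. Of 31 pooled peaks at sns, 6 (19.4%) were in the lists of all 3 replicates and 18 in 1 replicate only. At hbs 1 of 7 (14.3%) was in all 3 lists, against 34.2% of all pooled peaks. Kirre and rst had 51 of 111 (45.9%) and 7 of 16 (43.8%). The 34.2% and the kirre and rst shares include IDR-thresholded summits, 88.1% of which were in all 3 lists over the arms. Sns and hbs had 0 such summits, so their shares are of weak peaks only and are not like for like. Among the top 5000, kirre had 25, 15 and 16 peaks in replicates 1, 2 and 3 (18.7 ± 5.51), or 0.619, 0.371 and 0.396 per 10 kb, against 0.428, 0.353 and 0.366 on the X. Kirre exceeded the X by most in replicate 1 and only slightly in replicates 2 and 3, and rst had 1 peak in each replicate.

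**Figure D5:**
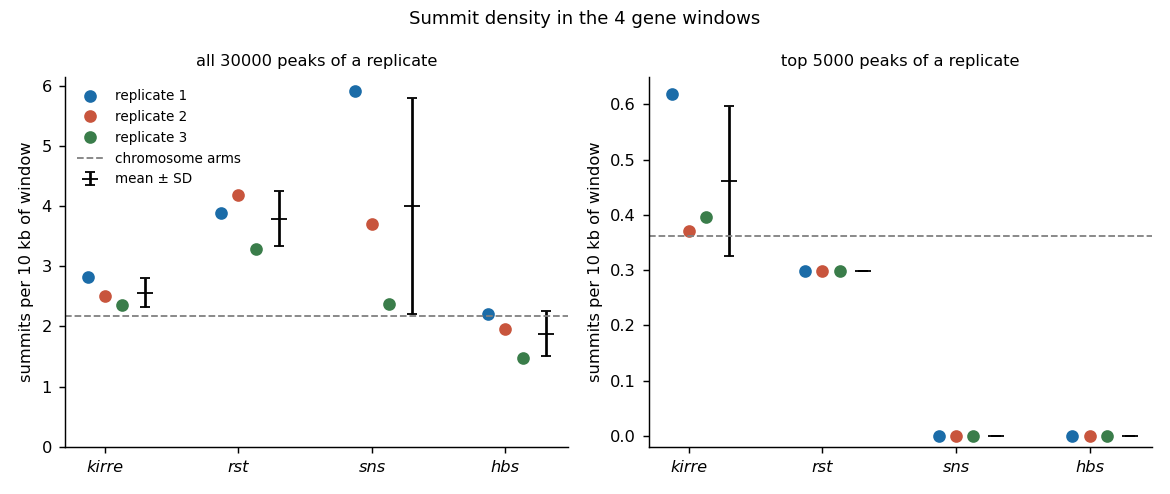
Summits per 10 kb of window (vertical axes) at kirre, rst, sns and hbs, for all 30000 peaks of each replicate (left) and for its top 5000 (right); points are replicates, bars are mean ± SD (n = 3) and dashed lines are the chromosome arms. In the left panel sns spans 2.37 to 5.92, and in the right panel sns and hbs are at 0 in all replicates while kirre lies between 0.371 and 0.619.

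With 21 kirre windows, the intervals on motif shares are wide. The windows of 101 bp were searched on both strands for the nuclear receptor half-sites AGGTCA and GGGTCA, the GATA site GATAAG, the GAGA repeat GAGAGA and the Zelda-type site CAGGTAG, each exact. DR1, a direct repeat of the half-site AGGTCA with 1 base between the copies, was searched with up to 1 mismatch and overlaps that half-site. COUP-TF proteins are known to bind such half-sites and repeats. Neither half-site lay in any of the 21 kirre windows (exact 95% interval 0 to 16.1%), against 10.5% of the 5404 other windows, a share inside that interval, with 5.37% for AGGTCA and 5.46% for GGGTCA. The GATA site lay in 1 (4.76%), the minus strand match 6 bp from the summit of peak 7 at w, printed in capitals above, against 11.3%. The GAGA repeat, the Zelda-type site and DR1 lay in 0, against 5.51%, 0.370% and 0.0925%. With 100 bp to each side, matches lay at 4.76% of kirre summits for AGGTCA, against 8.44% of the others, and at 14.3% for GATAAG, against 19.7%. The GAGA repeat then lay at 9.52%, against 12.6%, and the Zelda-type site at 4.76%, or 1 summit, against 0.703%. The other half-site and DR1 stayed at 0, against 8.36% and 0.167%.

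The kirre windows were low in G and C by their median, with a wide range. Their median of 28.7% G and C lay under the 36.6% of all summit windows in introns and the 34.7% of 514 intron windows on the X outside kirre. It lay also under the 41.3% of the whole gene, and 19 of the 21 windows had less G and C than the sequence 500 bp to their sides, where the median was 42.6%. Windows elsewhere shared the dip, with 37.6% at all summits and 43.1% in their flanks. Of the X intron windows outside kirre, 23.9% were at or under the kirre median. Of the 17 kirre windows in introns outside promoters, 12 were under the X intron median, so 5 were not. The kirre windows ran from 20.8% to the 54.5% of peak 6.

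By summit counts in the top 5000 of the 3 replicates, the genes most like kirre were shn, tara and CG43658. Shn had 18, 13 and 15 summits in replicates 1, 2 and 3, tara 16, 14 and 15, and CG43658 18, 12 and 14, with summed differences from kirre of 10, 11 and 12. All are much shorter than kirre, at 58309, 34679 and 105012 bp. For the other members the measure separated little: 946 genes had the same counts as rst, 6989 the same as sns and 6990 the same as hbs. Those of nearest length were knrl, HDAC4 and Ih for rst, rdo, mtt and beat-VI for sns, and PMCA, disco-r and Src42A for hbs.

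Genes of processes in which these receptors act were taken as lists. Of 23 genes of myoblast fusion, 13 (56.5%) had an IDR-thresholded summit in the body or within 5 kb, against 39.2% of all genes, and the list had a median length of 7.52 kb, against 2.16 kb for all genes. The part of length in these shares was not tested. In the top 5000 of replicates 1, 2 and 3, 11, 14 and 15 of the 23 had one, against 35.0%, 43.3% and 41.3% of all genes. The highest was at mbc, a guanine nucleotide exchange protein for Rac, with 6 summits and a top signal value of 581.3 in an intron, and 145, 292 and 142 in the replicates. Fim, an actin-bundling fimbrin, had 9 summits and a top value of 479.6, at the promoter of its neighbour CG5445. Rols, the founder-cell adaptor that links the receptors to the cytoskeleton, had 1 summit of 453.2, and the muscle transcription factor gene Mef2 had 4, with a top value of 398, both in introns. The 10 without a summit were WASp, lmd, Alk, Vrp1, sing, Ced-12, SCAR, Crk, Pak and Arf6.

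Of 6 genes listed for the slit diaphragm, its scaffold and other nephrocyte functions, 4 (66.7%) had a summit, against 39.2% of all genes. In the top 5000 of replicates 1, 2 and 3, 4, 5 and 5 had one, against 35.0%, 43.3% and 41.3% of all genes. The list is small and had a median length of 7.40 kb, against 2.16 kb for all genes, and the part of length was not tested. Mec2, a stomatin-like protein related to podocin, had a promoter peak 289 bp from its TSS with a signal value of 803.3, and 256, 344 and 210 in the replicates. The junction scaffold gene pyd, the fly counterpart of ZO-1, and cindr, an adaptor related to CD2AP, had 7 summits each, with top values of 399.4 and 378.9 in introns. Cubn, a nephrocyte uptake receptor, had 1, of 390.7, at the promoter of l(1)G0320. Klf15 and Amnionless had 0. Counting gene bodies alone left 8 of the 23 fusion genes (34.8%) and 2 of these 6 (33.3%) with a summit, against 13.4% of all genes. With the upper 50% of peaks by signal value and the 5 kb flanks, 8 of 23 (34.8%) and 4 of 6 (66.7%) had one, against 27.9%. Several of the counted summits lay in flanks, as at Mec2 and Cubn.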

How the data were processed

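Peak lists on dm6 were used as deposited. Per the deposited manifests, each replicate list was made from the alignments of that replicate and 1 control file shared by all 3, the pooled list from all 3 replicates, and the IDR-thresholded (irreproducible discovery rate) list from those 4. Not given in the sources used here are the aligner, the caller of the peaks, the threshold on IDR and the number of reads. Because replicate and pooled lists were all cut at 30000 peaks, their totals do not reflect depth, and counts within a gene are shares of a fixed total. Signal values are those the authors deposited, on a scale that is not stated, and served only within 1 list. The dm3 lists were not used here.

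Summits were assigned, counted from 1, to genes of the Ensembl 115 annotation (BDGP 6.54) with 5 kb flanks, and sequences were read from the RefSeq Release 6 genome. A promoter was within 500 bp of a protein-coding TSS, and other summits took the class of the feature they lay in. Shares carry exact 95% binomial intervals (scipy 1.17.1), which cover counting error only. They take peaks as independent, though many kirre peaks lie close together. Python 3.11.15, numpy 2.4.6, pandas 2.3.3 and matplotlib 3.10.9 were used, and the counting and motif steps were tested on simulated data.

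No test was made, since the 4 genes were proposed from peak counts and there is 1 group. The members and lists were chosen with earlier results of these data known. Named genes were the members, nested or neighbouring genes with a TSS within 500 bp of a member summit, the 5 genes with the most summits, the 3 genes closest to each member in replicate counts, and up to 4 genes of each pathway list with the highest signal values. Peaks described singly were the 5 highest of each member. The joining distance of 10 kb, the comparison with genes of at least 30 kb, the base composition values, the best replicate of each peak, peaks 6, 7, 13 and 21 and the outside and left-out peaks were chosen after values were seen. Arf6 and Pak were matched by synonym. The alternatives were gene bodies alone or with 2 kb flanks, the upper 50% of peaks by signal value, the pooled list, the top 10000 or full lists, 50% reciprocal overlap, summits within 100 bp, wider promoters and windows, and each replicate left out. Leaving out a replicate did not remake the IDR-thresholded list.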

Additional observations from a re-analysis of the deposited data

How the results depend on the processing

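Of 116 results recomputed under alternatives, 86 were counted as unchanged and 30 as moved. Results other than motif shares were unchanged if within 1.5 times the main value or within the spread between replicates. Kirre motif shares were unchanged if inside the exact binomial interval of the main share, which is wide. With 100 bp to each side, GATAAG rose from 4.76% to 14.3% and GAGAGA from 0% to 9.52%, and both counted as unchanged. So did AGGTCA and CAGGTAG, from 0% to 4.76%, while GGGTCA and DR1 stayed at 0%. The 86 include the summit counts and densities of sns and hbs, which were 0 in the main setting. Smaller windows and shorter lists of peaks could not raise these from 0. The same holds for kirre motif shares of 0% when recomputed in the upper 50% of peaks. Such results could not move, so the 86 overstates how many results were put to a test. Some of the 30 were in turn all but bound to move. Peaks per replicate in the top 5000 came from lists of 30000 peaks cut to 5000. The margin for rst density was a spread of 0 between replicates, so any change counted as a move. The kirre summit count stayed the highest of all genes with gene bodies alone, 2 kb flanks, the upper 50% of peaks by signal value (14 summits) and the pooled top 5000 (19), and ranked 2, 2 and 3 without replicates 1, 2 and 3 (14, 15 and 15 summits). Kirre density was 0.346 per 10 kb in the upper 50% and 0.346 to 0.371 with a replicate left out. These settings kept only 2713 and 3463 to 3611 of the 5425 summits on the arms. Densities in them are therefore not like for like with the 0.394 per 10 kb of all arms. Leaving out a replicate kept the IDR-thresholded list made from all 3 and counted its summits in the top 5000 of both remaining replicates. Support of kirre peaks by all 3 replicates fell to 8 with 50% reciprocal overlap and was 15 with summits within 100 bp, which was chosen after seeing the data. Peaks per replicate in the top 5000 were 18.7 for kirre, 1 for rst, 0 for sns and 0 for hbs, and gene bodies alone gave 7.67 for rst and 5 for hbs.

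The rst count was 0 with the body alone and with 2 kb flanks, and 1 in the upper 50% or with any replicate left out (1 to 1). Its density was then 0, 0, 0.299 and 0.299 to 0.299 per 10 kb. Its support by all 3 was 2 with the top 10000, 2 with full lists and 0 with reciprocal overlap. GATAAG at kirre was 0% in the upper 50%. The myoblast fusion list had 8 genes with a summit by bodies alone (34.8%, against 13.4% of all genes) and 8 in the upper 50% (34.8%, against 27.9%), and the slit diaphragm list 2 by bodies alone (33.3%). The cause was not tested, beyond the smaller windows and lists themselves. No paired analysis was possible because the samples form 1 group. Depth and the scaling of the signal values are unknown, so a weak peak at sns or hbs cannot be set against a detection limit.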
